A study of Mus musculus with 9 samples.

Results

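Inhibitory receptors restrain T cells that meet antigen for a long time, and the nuclear factor Tox is needed to keep the exhausted state in which these receptors accumulate. Their transcripts were followed in tumor-infiltrating CD8+ T cells through 10 genes taken by name from the 32976 genes of the count tables. They were 8 receptors (Pdcd1, Havcr2, Lag3, Tigit, Ctla4, Btla, Cd160 and Cd244a), the surface enzyme Entpd1 (CD39) and Tox. All 10 were matched to an Ensembl identifier.

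The T cells recognized GSW11, an epitope of the murine colorectal carcinoma line CT26, and came from wildtype mice given an antibody to PD-1 (clone RMP1-14) on day 3, day 6 and day 9 of tumor growth. Cells with strong tetramer staining were taken from progressing tumors (high avidity, TetHighProg), and cells with weak staining from regressing tumors (low avidity, TetLowReg) or from progressing tumors (TetLowProg). Each of the 3 groups had 3 libraries of RNA from CD8+ CD44+ sorted cells, and none of them was untreated. The comparisons ask whether avidity, and the outcome of the tumor, go with the level of these transcripts. The 9 libraries came from 3 regressing and 3 progressing tumors, so the TetHighProg and TetLowProg libraries share tumors. The labels do not match libraries to tumors, so every test treated the 9 libraries as independent, and the p-values below measure only the spread between them.

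PD-1 (Pdcd1) is switched on by T cell receptor signaling and recruits phosphatases to the activated receptor complex, and CTLA-4 competes with CD28 for CD80 and CD86. Tim-3 (Havcr2), LAG-3 and TIGIT are usually gained later, together with CD39, which starts the breakdown of extracellular ATP toward adenosine. Tox is a chromatin-associated factor induced by calcium and NFAT signaling, and it is also used by CD8+ T cells that keep some capacity for self-renewal.

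The libraries differed greatly in how many genes they detected. A gene was counted as found at 10 reads or more, and 599 to 8071 genes were found per library although the totals of gene counts were similar (16405306 to 36429515). Fewer than 2000 genes were found in 4 libraries, namely TetLowReg replicate 6, TetLowProg replicate 10 and TetHighProg replicates 1 and 2, and 3181 in TetHighProg replicate 5. The other 4 low avidity libraries, TetLowReg replicates 7 and 8 with TetLowProg replicates 9 and 12, had 6443 to 8071. The reads were copied by PCR without molecular identifiers, so the counting intervals and limits given below cover counting error only. The limit set by a count of 0 was 3 counts, or 0.0824 to 0.183 CPM (counts scaled to 1000000 gene counts per library). As these are bulk libraries, fewer cells of a type and less RNA per cell cannot be told apart.

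The sorted identity was only partly visible in the RNA. Of 12 CD8 T cell markers, 4 to 12 were found per library, and Cd8b1, which encodes the CD8 beta chain, had 1250 to 79539 counts in 8 libraries. TetLowReg replicate 6 had 8 counts of Cd8b1 beside 47022 of Cd8a, while Cd8a was at 0 in TetHighProg replicates 1 and 2 and TetLowProg replicate 10. Cd44, a marker used in the sort, was at 0 in the 4 libraries with fewer than 2000 genes.

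Ctla4 and Tigit were found in the same 4 libraries, whereas Pdcd1 was found in only 2 of these. Their promoters are shown for this reason, as the 250 bases before the start of the canonical transcript in GRCm39, read 5′ to 3′ on the strand of the gene. Capitals mark the core sequence bound by NFAT, GGAAA or its reverse complement TTTCC. The windows are chr1:60947934-60948183 on the plus strand for Ctla4, chr16:43484510-43484759 on the minus strand for Tigit and chr1:93980313-93980562 on the minus strand for Pdcd1, and none overlapped an annotated exon.
Ctla4: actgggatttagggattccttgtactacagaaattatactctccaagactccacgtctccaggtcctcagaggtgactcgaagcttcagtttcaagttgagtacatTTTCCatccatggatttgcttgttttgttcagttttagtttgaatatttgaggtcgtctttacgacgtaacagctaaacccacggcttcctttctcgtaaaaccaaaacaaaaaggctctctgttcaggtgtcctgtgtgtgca
Tigit: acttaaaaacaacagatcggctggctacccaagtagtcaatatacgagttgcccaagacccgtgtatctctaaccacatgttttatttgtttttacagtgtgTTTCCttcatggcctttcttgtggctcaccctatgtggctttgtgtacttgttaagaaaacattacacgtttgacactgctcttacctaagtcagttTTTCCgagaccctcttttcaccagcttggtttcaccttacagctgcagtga
Pdcd1: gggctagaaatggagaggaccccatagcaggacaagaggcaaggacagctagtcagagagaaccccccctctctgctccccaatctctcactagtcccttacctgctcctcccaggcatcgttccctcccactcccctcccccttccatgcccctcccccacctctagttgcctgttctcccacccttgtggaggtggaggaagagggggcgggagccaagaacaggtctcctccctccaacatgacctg
The core occurred once before Ctla4, 2 times before Tigit and not in the window before Pdcd1. Of the others, Tox (found in 8 libraries) and Havcr2 (found in 1) had none. Btla and Entpd1 (found in 1 each) had 2 matches each. Lag3 and Cd244a (found in 3 each) and Cd160 (found in 1) had 1 each. A relation of the core to detection was not tested. The core was present on either strand in 7 of the 10 windows of this gene set, against 57.9% of 20713 protein-coding promoters. The AP-1 motif TGANTCA occurred in 2 of the 10, Havcr2 and Cd244a, against 6.16% of all promoters. These matches are letters in a window and say nothing of binding.

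Tox was detected more broadly than the other 9 genes. Tox was found in 8 of the 9 libraries, a breadth shared by 2.89% of the 13373 genes found in at least 1 library, and in all 3 TetHighProg libraries, as were 2.36% of those genes. The 8 receptors and Entpd1 were not found in any TetHighProg library, which was also true of 72.2% of the 13373 genes. Of these 9 genes, 8 were at 0 in all TetHighProg libraries (60.8% of genes found anywhere), and Tigit had 1 count, in replicate 5. Their absence there was therefore the common state of a gene in these libraries, and the presence of Tox was not.

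**Figure D1:**
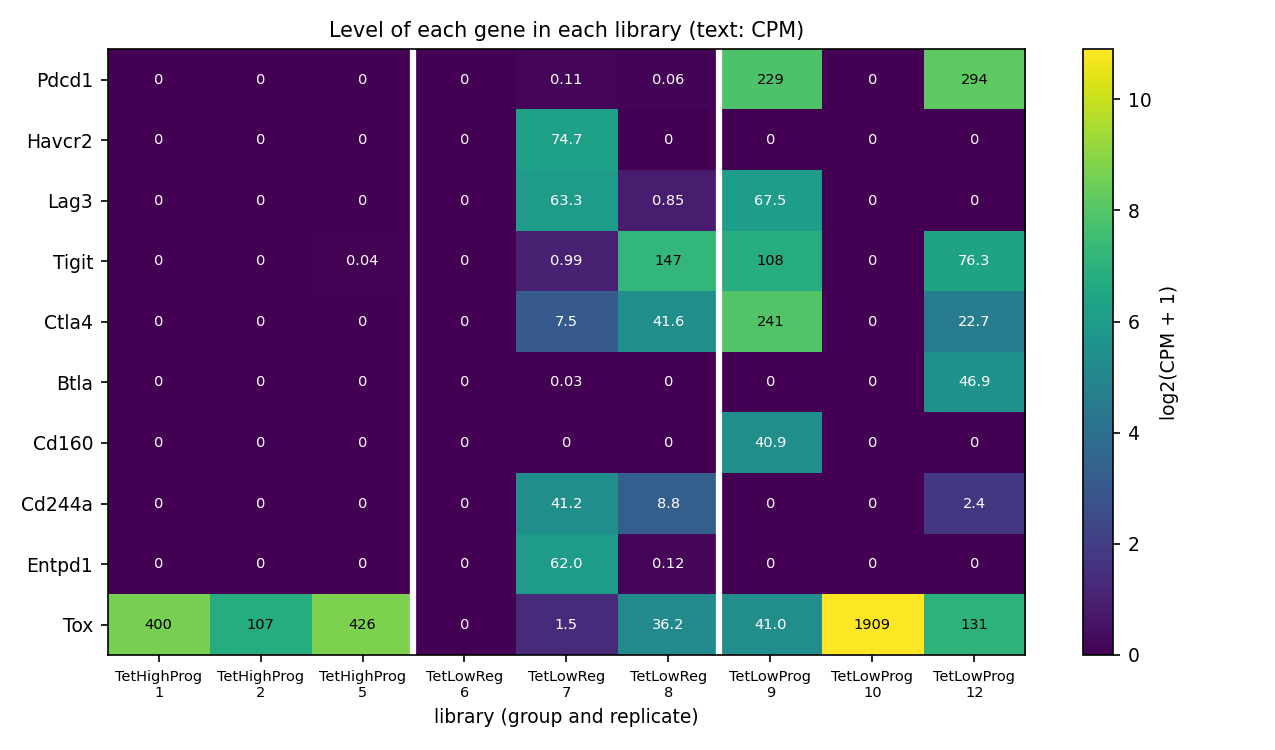
Level of each of the 10 genes (rows) in each of the 9 libraries (columns, grouped as TetHighProg, TetLowReg and TetLowProg); colour gives log2(CPM + 1) and the text in each cell gives CPM. Tox has a level above 100 CPM in the 3 TetHighProg libraries, where every other gene is at or near 0, and the receptors appear in TetLowReg replicates 7 and 8 and TetLowProg replicates 9 and 12.

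Pdcd1, the gene of the receptor that the antibody binds, was found only in low avidity cells from progressing tumors. TetLowProg replicates 9, 10 and 12 had 8322, 0 and 9258 counts of it (229, 0 and 294 CPM), while TetLowReg replicates 6, 7 and 8 had 0, 4 and 1. All 3 TetHighProg libraries were at 0. The groups overlapped because TetLowProg replicate 10 had none.

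The gap was wide among the libraries with many genes found. TetLowReg replicates 7 and 8 had 8004 and 7234 genes but 0.110 and 0.0610 CPM of Pdcd1, near the level of 3 counts. Over the groups, the ratio of TetLowProg to TetLowReg, from summed counts scaled by summed totals, was 2831 (95% counting interval 1213 to 8721). The level in TetLowProg was at least 5131-fold higher than in TetHighProg, with the limit set at 3 counts over that group. The TetHighProg libraries had only 599 to 3181 genes found, and 60.8% of genes found anywhere were at 0 in all of them. This fold therefore cannot be told apart from the low number of genes detected there. Pdcd1 did not pass edgeR's filter on low counts. In the edgeR quasi-likelihood test without that filter, its log2 fold change between TetLowProg and TetLowReg was 10.66 (SE 6.12, adjusted p = 0.463). With the 4 libraries of fewest genes left out it was 10.67 (SE 3.60, adjusted p = 0.701, unadjusted p = 0.00305). DESeq2 gave the same comparison adjusted p-values of 0.0519, 0.241 and 0.170 under its 3 settings, so no test passed the threshold of 0.05.

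Ctla4 was found in 4 libraries of both low avidity groups. The TetLowReg libraries (replicates 6, 7 and 8, in this order below) had 0, 273 and 683 counts (0, 7.49 and 41.6 CPM). The TetLowProg libraries (replicates 9, 10 and 12, likewise) had 8764, 0 and 716 (241, 0 and 22.7 CPM). One library, TetLowProg replicate 9, supplied 8764 of its 10436 counts. Tigit, whose protein binds the poliovirus receptor on tumor and myeloid cells, was found in the same 4 libraries, as were 7.29% of the genes found anywhere. Its counts were 0, 36 and 2409 in TetLowReg (0, 0.988 and 147 CPM) and 3929, 0 and 2404 in TetLowProg (108, 0 and 76.3 CPM). Both receptors were lowest of these 4 libraries in TetLowReg replicate 7, but Tigit was highest in TetLowReg replicate 8 and Ctla4 in TetLowProg replicate 9.

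Lag3, which binds MHC class II, was found in 3 libraries with 0, 2306 and 14 counts in TetLowReg (0, 63.3 and 0.853 CPM) and 2452, 0 and 0 in TetLowProg (67.5, 0 and 0 CPM). A single library of each group thus held nearly all of it. Cd244a, which encodes the SLAM family receptor 2B4, had 0, 1500 and 144 counts in TetLowReg (0, 41.2 and 8.78 CPM) and 0, 0 and 76 in TetLowProg (2.41 CPM in replicate 12).

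The other receptors and Entpd1 were found in 1 library each, as were 36.4% of the genes found anywhere. Havcr2 (Tim-3) had 2721 counts in TetLowReg replicate 7 (74.7 CPM) and none in any other library. Entpd1 had 2259 counts in the same library (62.0 CPM) and 2 in TetLowReg replicate 8. Btla, a receptor for HVEM, had 1477 counts in TetLowProg replicate 12 (46.9 CPM) and 1 in TetLowReg replicate 7. Cd160, another receptor for HVEM, had 1485 counts in TetLowProg replicate 9 (40.9 CPM) and none elsewhere. Havcr2 and Entpd1, which are usually gained later in exhaustion, occurred in a regressing tumor library that held 4 counts of Pdcd1. In that library 5 of 8 macrophage and monocyte markers were also found. Such cells express both genes as well, and the source of the transcripts was not tested.

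Tox itself had 13349, 2704 and 9663 counts in the TetHighProg libraries (replicates 1, 2 and 5, also in this order below), or 400, 107 and 426 CPM. The TetLowReg libraries had 0, 54 and 594 counts (0, 1.48 and 36.2 CPM), and the TetLowProg libraries had 1491, 47984 and 4129 (41.0, 1909 and 131 CPM). On this scale every TetLowReg library lay below every library of the other groups, while TetHighProg and TetLowProg overlapped. Mitochondrially encoded genes took 44.5% and 14.2% of the counts in TetLowReg replicates 7 and 8, against 1.36% to 6.07% in the other 7 libraries, and their part in the Tox levels was not tested beyond the scaling. With these genes left out of the totals, TetLowReg replicate 8 had 42.2 CPM of Tox and TetLowProg replicate 9 had 42.0, and on TMM-scaled totals they had 40.6 and 24.7. The separation of TetLowReg from TetLowProg was thus lost under both scalings, while that from TetHighProg was kept. Tox ranked 379 to 515 among the genes of the TetHighProg libraries by count, and 2484 and 6064 in TetLowReg replicates 8 and 7.

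The group means of Tox were 311 ± 177 CPM in TetHighProg (SD, n = 3), 12.6 ± 20.5 in TetLowReg and 694 ± 1053 in TetLowProg. The ratio of TetLowReg to TetHighProg, from summed counts, was 0.0274 (95% counting interval 0.0253 to 0.0296), and TetLowReg replicate 8 held 594 of the 648 TetLowReg counts. The difference of -298 CPM had a two-sided exact permutation p of 0.1, the smallest that 3 libraries against 3 allow. TetLowProg exceeded TetLowReg by 681 CPM (exact permutation p = 0.1), but by 73.5 CPM without TetLowProg replicate 10, and the exact permutation p was 0.2 under both other scalings. Of the 17615 genes with a count, 0.352% were lower in every TetLowReg library than in every TetHighProg library, and 1.03% were higher in every TetLowProg library than in every TetLowReg library. Both exact p-values became 0.941 when adjusted over the 40 tests of 10 genes in 4 comparisons. TetLowProg exceeded TetHighProg by 383 CPM (exact permutation p = 0.9), and this rested on TetLowProg replicate 10, without which the difference was -225 CPM. Across TetLowReg against TetHighProg, TetLowProg against TetHighProg, TetLowProg against TetLowReg and both low avidity groups against TetHighProg, 2.06%, 2.45%, 1.03% and 0.312% of all genes were higher in every library, and 0.352%, 0.227%, 0.517% and 0.0852% lower. No other gene of the 10 had groups without overlap in any of the 4 comparisons, and the other 9 genes had exact permutation p-values of 0.202 or more throughout.

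**Figure D2:**
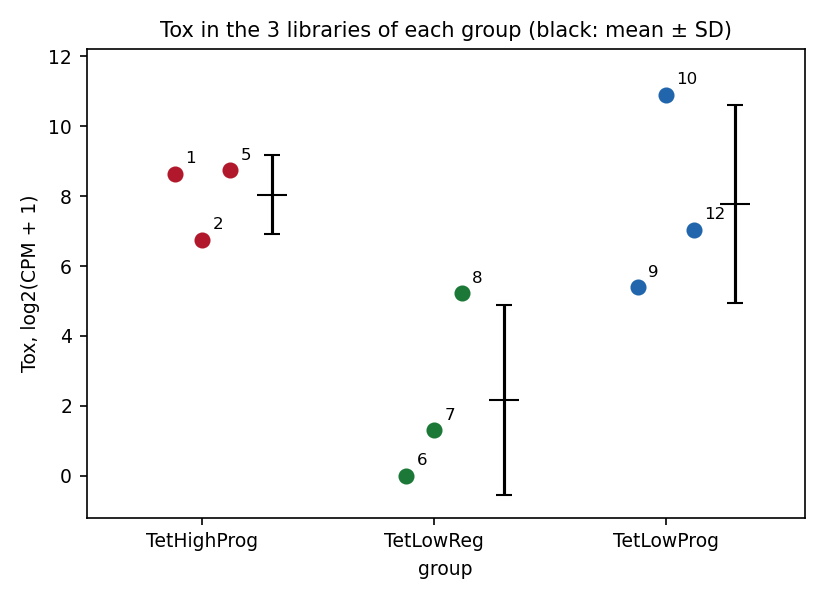
Tox level as log2(CPM + 1) in each library (points, labelled by replicate) of the 3 groups; black lines give the mean and SD of the 3 libraries on this scale. On this scaling by total gene counts the TetLowReg libraries (0, 1.48 and 36.2 CPM) lie below all others, an order that TetLowReg replicate 8 and TetLowProg replicate 9 exchange when mitochondrially encoded genes are left out, and TetLowProg replicate 10 (1909 CPM) lies above all others.

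The number of genes of the set found in a library followed the number of all genes found there. The TetHighProg libraries had 1 each, the TetLowReg libraries 0, 7 and 5, and the TetLowProg libraries 6, 1 and 6, with means of 1, 4 ± 3.61 and 4.33 ± 2.89 (SD, n = 3). Across the 9 libraries the correlation with the number of genes found was 0.962 (Pearson) and 0.857 (Spearman), a description of libraries that fall into separate clusters. Within the 4 libraries of 6443 to 8071 genes, all from low avidity cells, the set had 5 to 7 genes. TetHighProg had no library in that range, so for the receptors avidity and the number of genes detected cannot be told apart. Leaving out the 4 libraries with fewer than 2000 genes, a choice made after seeing the data, left TetHighProg replicate 5 with 1 gene found, and the means of TetLowReg and TetLowProg were each 5 higher.

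**Figure D3:**
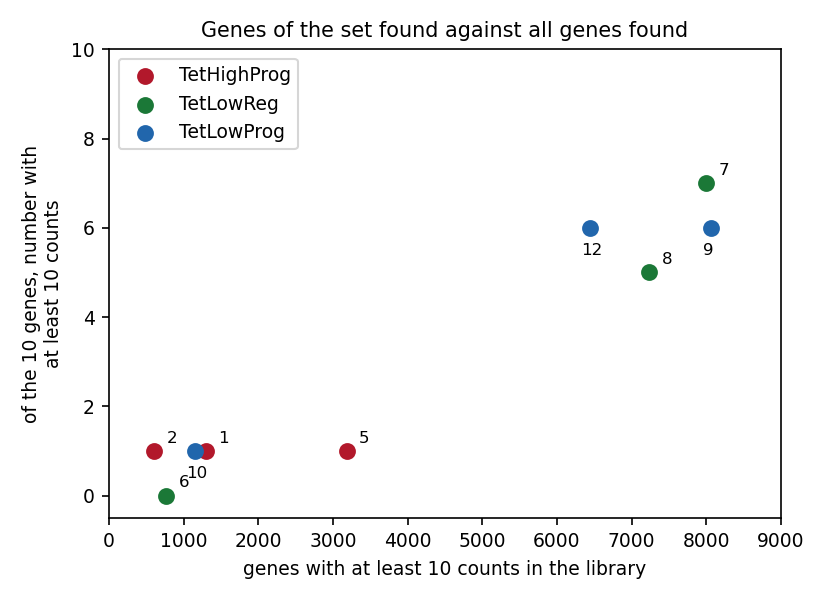
Number of the 10 genes with at least 10 counts (vertical) against the number of all genes with at least 10 counts (horizontal) in each library, coloured by group and labelled by replicate. The 4 libraries with 6443 to 8071 genes hold 5 to 7 of the 10, and the 5 libraries with 599 to 3181 genes hold 0 or 1.

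In each of the 4 libraries a different combination was present. TetLowReg replicate 7 had Havcr2, Lag3, Tigit, Ctla4, Cd244a, Entpd1 and Tox, and TetLowReg replicate 8 had Lag3, Tigit, Ctla4, Cd244a and Tox. TetLowProg replicate 9 had Pdcd1, Lag3, Tigit, Ctla4, Cd160 and Tox, and TetLowProg replicate 12 had Pdcd1, Tigit, Ctla4, Btla, Cd244a and Tox. Tigit, Ctla4 and Tox were common to all 4. The summed level of the 8 receptors was 188 and 198 CPM in the 2 TetLowReg libraries and 687 and 442 CPM in the 2 TetLowProg libraries (229 and 294 CPM of which were Pdcd1). TetLowReg replicate 6 and TetLowProg replicate 10 had 0.

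Per kilobase of exon, the mean level over the 9 libraries was highest for Tox at 43.7 ± 78.8 CPM per kb (SD, n = 9). Tigit followed at 35.2 ± 55.2, Pdcd1 at 29.5 ± 59.2, Ctla4 at 14.9 ± 33.8 and Lag3 at 6.59 ± 13.0 CPM per kb. The lowest were Cd160 at 1.71, Havcr2 at 1.70, Btla at 1.33, Cd244a at 1.18 and Entpd1 at 0.970 CPM per kb. For every gene the SD exceeded the mean, so no neighbours in this order differed by more than the spread between libraries. The first place of Tox rested on TetLowProg replicate 10, without which Tox was at 18.4 CPM per kb, below Tigit (39.6) and Pdcd1 (33.2). The places of Tigit and Pdcd1 rested on single libraries as well. Tigit was at 22.1 without TetLowReg replicate 8, below Pdcd1 at 33.2, and Pdcd1 was at 14.6 without TetLowProg replicate 12, below Ctla4 at 15.6. Without TetLowProg replicate 9, Ctla4 and Lag3 kept their places, but at 3.85 and 3.61. Without TetLowReg replicate 7, Cd244a was at 0.284. The order differed by group. In TetLowReg, Tigit (47.0 CPM per kb), Lag3 (9.63), Ctla4 (7.03), Havcr2 (5.11), Cd244a (3.38) and Entpd1 (2.91) all had a higher mean level than Tox (1.62). In TetLowProg, Tox (89.5) and Pdcd1 (88.6) were highest, with TetLowProg replicate 10 holding 47984 of the 53604 Tox counts.

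The edgeR tests across all genes gave no call for the set. Of the 10 genes, 5 passed the filter on low counts: Lag3, Tigit, Ctla4, Cd244a and Tox. A call needed a Benjamini-Hochberg adjusted p below 0.05 with more than 2 log2 units of change, and edgeR called 0% of 5813 genes in TetLowReg against TetHighProg, in TetLowProg against TetHighProg and in TetLowProg against TetLowReg, and 0.0172% in both low avidity groups against TetHighProg. It therefore called 0 of the 5 in each comparison. Both comparisons with TetHighProg share its 3 libraries.

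In TetLowReg against TetHighProg, the log2 fold changes of the 4 receptors were 13.01 for Lag3 (SE 6.43, unadjusted p = 0.0431), 12.57 for Cd244a (SE 6.06, unadjusted p = 0.0379), 12.17 for Ctla4 (SE 6.35) and 11.72 for Tigit (SE 6.68), with edgeR adjusted p of 0.233 to 0.245. The median over all tested genes was 4.82, and 19% of genes were higher and 0.516% lower at an unadjusted p under 0.05, so positive values were the background against TetHighProg. Tox stood on the other side, at -4.40 (SE 3.73, edgeR adjusted p = 0.464), and at -7.76 without TetLowReg replicate 8. Without that library Tigit was at 5.71, and without TetLowReg replicate 7 Lag3 was at 6.69. In TetLowProg against TetHighProg, Ctla4 had 13.66 (SE 6.72, unadjusted p = 0.0419), Lag3 11.63, Tigit 11.43, Cd244a 7.45 and Tox 1.08, around a median of 5.40 with 24.8% of genes higher and 0.55% lower at an unadjusted p under 0.05. These edgeR adjusted p-values ran from 0.193 to 0.919. Lag3 was at 0 without TetLowProg replicate 9, as was Cd244a without TetLowProg replicate 12. The 4 receptors had 0 or 1 count in TetHighProg and passed the filter only through the low avidity groups, so their positive sign was fixed by the filter, and the fitted size depends on the prior count and is no bound.

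Between the low avidity groups, TetLowProg minus TetLowReg was 1.49 for Ctla4 (SE 4.37), -0.29 for Tigit (SE 4.32), -1.38 for Lag3 (SE 4.27), -5.12 for Cd244a (SE 4.77) and 5.48 for Tox (SE 3.93), and every edgeR adjusted p rounded to 1. The median of all genes was 0.35, and 0 of the 5 had an unadjusted p under 0.05, as against 0.43% of genes higher and 0.499% lower. The errors were wide enough that equal levels were not shown either. With both low avidity groups together against TetHighProg, Ctla4 had 12.92 and Lag3 12.32 (unadjusted p = 0.0460 and 0.0470), and Tox -1.66 (edgeR adjusted p = 0.773), where 24.4% of genes were higher and 1.19% lower at an unadjusted p under 0.05. The mean Tox level ran the other way, at 353 CPM in both low avidity groups and 311 in TetHighProg, a difference of 42.3 CPM (exact permutation p = 0.988). It was -59.7 CPM without TetHighProg replicate 2 and -269 CPM without TetLowProg replicate 10. Among the 4 alternatives that turned this difference negative, the smallest exact permutation p was 0.0357, without adjustment.

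**Figure D4:**
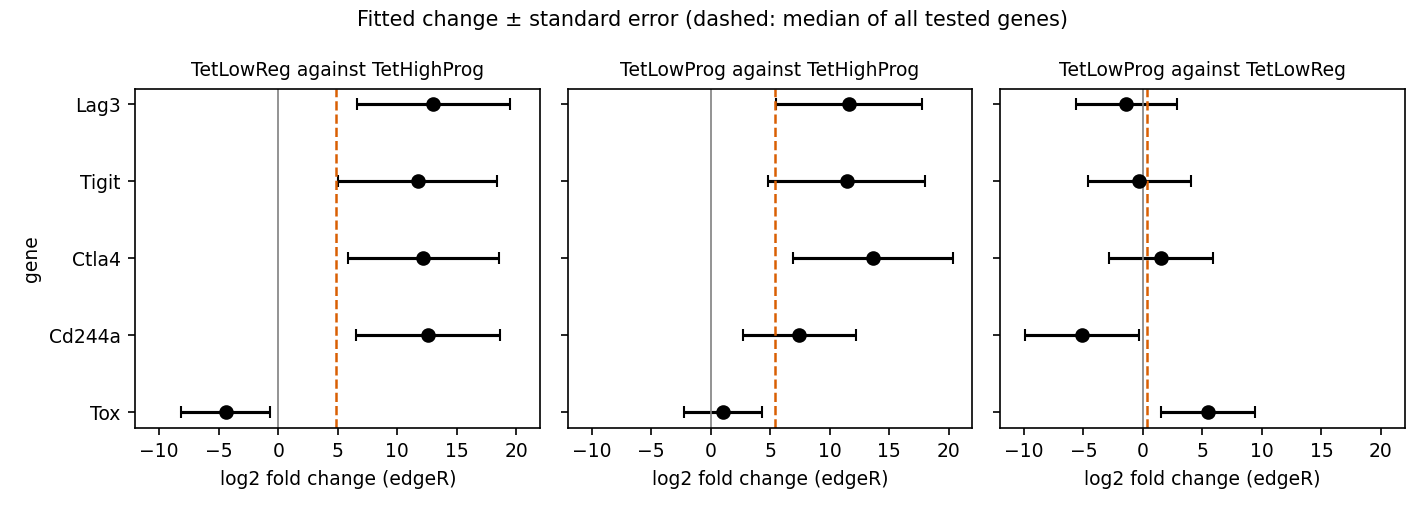
Log2 fold change from edgeR (horizontal, with its standard error) of the 5 genes that passed the filter, in 3 comparisons; the dashed line is the median over all 5813 tested genes and the grey line is 0. The receptors had 0 counts (Tigit 1) in TetHighProg and passed the filter through the low avidity groups, so their place above the median against TetHighProg was set by that choice, and Tox, found in all TetHighProg libraries, lies at -4.40 and 1.08 in those comparisons.

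DESeq2, the tool named in the methods of the study, made calls where edgeR made none. It gave an adjusted p to 3 to 5 of the 10 genes, and the percents below are of all genes given one. With default size factors it called Cd244a, Ctla4, Pdcd1 and Tigit, 4 of 5, in TetLowReg against TetHighProg, where it called 34.6% of all genes tested. The call of Pdcd1 there rested on 5 counts against 0. With poscounts size factors it called Ctla4, Tigit and Tox, 3 of 5 (27% of genes), and Tox then had a log2 fold change of -7.18 (adjusted p = 0.0430). On the 6 libraries of these groups alone it called Cd244a and Ctla4, 2 of 3 (34.1% of genes). In TetLowProg against TetHighProg the 3 settings called 3 of 5, 2 of 5 and 3 of 3, each time Pdcd1 and Tigit among them, beside 42.7%, 24.5% and 45.8% of genes. In TetLowProg against TetLowReg they called 0 of 4, 0 of 5 and 0 of 4, beside 1.89%, 0.525% and 0.0254% of genes. In both low avidity groups against TetHighProg they called 4 of 5, 2 of 5 and 4 of 4, beside 40.8%, 32.9% and 51.7%.

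B cell, CD4 T cell, erythroid and MHC class II markers were found most in TetLowReg replicates 7 and 8 and TetLowProg replicate 12. These libraries had receptors, and the libraries without receptors had fewer genes of each of these lists. Of 5 B cell markers, 4, 5 and 5 were found in TetLowReg replicates 7 and 8 and TetLowProg replicate 12 (581, 691 and 1217 CPM in sum), and none in the other libraries. All 4 MHC class II genes, among them Cd74, were found in the same libraries with sums of 47519, 39217 and 60339 CPM, against 0.119 to 1482 CPM in the others. TetLowProg replicate 9, with 5 receptors and 687 CPM of them, had 0 counts of all B cell markers and 85.7 CPM of class II genes. That library also had markers of other lists, among them Pecam1 (3038 counts), Klre1 (1646), Siglech (807), Cd68 (570) and Col1a2 (306). Its Pdcd1, Tigit and Ctla4 levels (229, 108 and 241 CPM) were as large as in TetLowProg replicate 12 or larger, except for Pdcd1 (294 CPM).

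Markers of CD4 T cells and Tregs, which carry Ctla4 and Tigit as well, had 2 of 4 genes found in each of TetLowReg replicates 7 and 8 and 1 of 4 in TetLowProg replicate 12. Cd4 had 2020, 42 and 2 counts in these libraries and Foxp3 123, 585 and 0. Both genes were at 0 in TetLowProg replicate 9. Of 8 macrophage and monocyte markers, 5 were found in TetLowReg replicate 7, the library with Havcr2 and Entpd1, which such cells also express, and 0 to 2 in every other library. Lyz2 alone had 299515 counts there, while C1qa was at 0 and Csf1r had 9. Among libraries without receptors, TetHighProg replicate 1 had 51557 counts of Lyz2 and 62249 of the dendritic cell gene Cd209a, with the other 7 macrophage and 6 dendritic cell markers at 0. TetHighProg replicate 2 had 37532 counts of Cd74, with the other 3 class II genes at 0. Erythroid markers numbered 3 of 4 found in TetLowReg replicates 7 and 8 and TetLowProg replicate 12, and 0 in every other library. Dendritic cell markers numbered 0 to 4 of 7 found per library, and tumor and stroma markers 0 to 4 of 6. NK cell and neutrophil markers numbered 0 or 1 of 3 each. The part of these cells in the receptor levels was not tested.

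The ligands of the receptors were sparser in the libraries with fewer genes, like the receptors. Of 14 ligand genes, 1 was found in each TetHighProg library, 1, 7 and 5 in TetLowReg and 7, 0 and 5 in TetLowProg. Cd86, which binds CTLA-4, had 8526 and 501 counts in replicates 7 and 8 of TetLowReg, 8625 in TetLowProg replicate 12 and 0 elsewhere. Pvr, the ligand of TIGIT, had 0, 2358 and 104 counts in TetLowReg, 150, 0 and 2110 in TetLowProg and none in TetHighProg. Hmgb1, a nuclear protein that also binds Tim-3, had 804 to 9505 counts in every library but TetLowProg replicate 10. Of 5 ligand genes tested against TetHighProg, 2 were higher at an unadjusted p under 0.05 in each low avidity group, where 19% (TetLowReg) and 24.8% (TetLowProg) of all tested genes were, and edgeR called none. Cd86 and Pvr, at 0 in TetHighProg, passed the filter only through the low avidity groups, so their positive sign was fixed by the filter.

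The signaling partners were more widely present. Of 11 genes, 2, 1 and 6 were found in TetHighProg, 1, 10 and 8 in TetLowReg and 11, 2 and 10 in TetLowProg. Dgka, a kinase that removes diacylglycerol and damps receptor signaling, had 8652, 0 and 105 counts in TetHighProg, 0, 9395 and 2396 in TetLowReg and 42133, 24375 and 12612 in TetLowProg. Sh2d1a encodes SAP, the adaptor that lets 2B4 signal positively, and had 31906, 1 and 6617 counts in TetHighProg, 1, 1080 and 735 in TetLowReg and 643, 0 and 974 in TetLowProg. The adaptor gene Grb2 had 6780 counts in TetHighProg replicate 2 and 152 to 4714 in 5 low avidity libraries. Of 10 tested, 1 had an unadjusted p under 0.05 in TetLowReg against TetHighProg and 2 in TetLowProg against TetHighProg, all higher, beside the same 19% and 24.8% of all genes, and edgeR called none.

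Among 8 other inhibitory receptors, those outside the set of 10, 1 was found in each TetHighProg library, 0, 6 and 3 in TetLowReg and 4, 0 and 4 in TetLowProg. Klrc1, which encodes NKG2A, was present where the 8 receptors were not, with 8077 and 84158 counts in TetHighProg replicates 1 and 2. It had 0 in replicate 5, the TetLowReg libraries had 0, 3467 and 4297, and the TetLowProg libraries 5937, 0 and 1432. Cd96, a relative of TIGIT, had 3005 counts in TetHighProg replicate 5 and 1145 and 127 in TetLowReg replicates 7 and 8. In TetLowProg replicates 9 and 12 it had 13474 and 31. Vsir (VISTA) had 0 in TetHighProg, 0, 30 and 372 in TetLowReg and 3792, 0 and 2112 in TetLowProg. Of 4 tested, 0 had an unadjusted p under 0.05 in TetLowReg against TetHighProg and 1 in TetLowProg against TetHighProg (Vsir, log2 fold change 13.25, SE 6.50, edgeR adjusted p = 0.193), beside 19% and 24.8% of all genes, and edgeR called none. Vsir passed the filter only through the low avidity groups, so its positive sign was fixed by the filter. Its fitted size depends on the prior count and is no bound.

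The adenosine pathway, in which Entpd1 acts, gave little signal. Of 6 genes, 0 or 1 was found in the TetHighProg libraries, 0, 3 and 1 in TetLowReg and 2, 0 and 2 in TetLowProg. Cd38, an enzyme that consumes NAD, had 417 counts in TetLowReg replicate 7 and 181 and 4233 in TetLowProg replicates 9 and 12. Slc29a1, an adenosine transporter, had 6959 in TetHighProg replicate 5 and 2433 in TetLowReg replicate 7. Ada, which degrades adenosine, had 1334 in TetLowProg replicate 9 and 32 in TetLowReg replicate 8. Only Cd38 was tested, and its unadjusted p-values against TetHighProg were 0.156 in TetLowReg and 0.0882 in TetLowProg.

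Of 16 other transcription factors of exhaustion and memory, 2, 1 and 5 were found in TetHighProg, 1, 7 and 10 in TetLowReg and 13, 2 and 7 in TetLowProg. Tcf7 encodes TCF-1, the factor of progenitor-like T cells, and had 2466, 1 and 38620 counts in TetHighProg, 0, 255 and 8892 in TetLowReg and 18867, 27422 and 29432 in TetLowProg. Nr4a2, an NFAT-driven nuclear receptor, had 0, 52109 and 10118 counts in TetHighProg and 970 to 7061 in the low avidity libraries.

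Nr4a1 had 1167 counts in TetHighProg replicate 1 and was at 0 or 1 in replicates 2 and 5, and had 0, 14482 and 62 in TetLowReg and 25540, 4 and 20123 in TetLowProg. Eomes, which goes with advanced exhaustion, was found only in TetLowReg replicate 8, with 64 counts. Tbx21 (T-bet) was found only in TetLowProg replicate 9, with 4499 counts. Of 8 factors tested, 1 had an unadjusted p under 0.05 in each low avidity group against TetHighProg, higher, beside 19% and 24.8% of all genes, and edgeR called none.

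**Figure D5:**
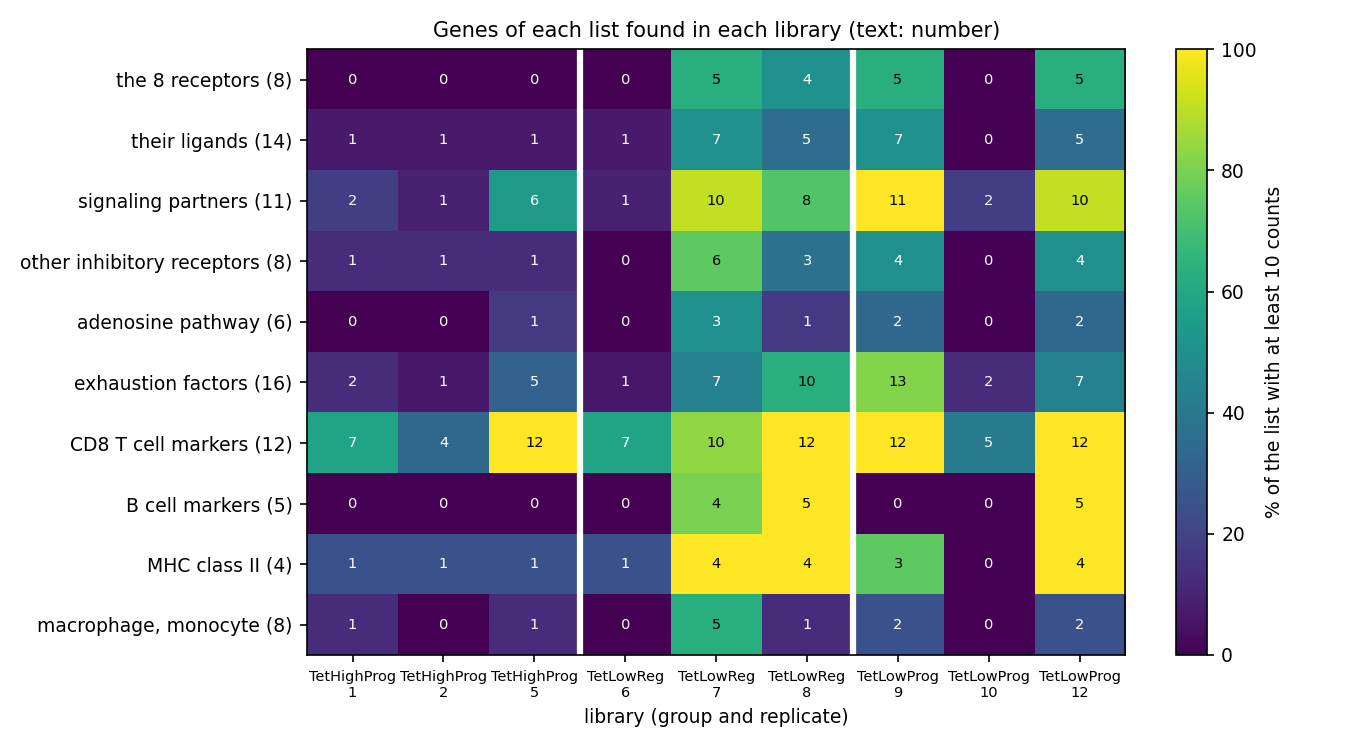
Number of genes of each list with at least 10 counts in each library (text), with the colour giving the percent of the list; the size of the list is in parentheses. The 8 receptors, their ligands and the signaling partners are found most in TetLowReg replicates 7 and 8 and TetLowProg replicates 9 and 12, and B cell markers in those except TetLowProg replicate 9.

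For the 5 genes found in 3 or more libraries, the gene with the most similar profile of log2(CPM + 1) over the 9 libraries was sought among 5870 others, as a description of points that share library and depth. The profile of Tox was most like that of Cd8b1 (Pearson r = 0.907), and only 2 genes had an r above 0.9. Cd8b1 had 79539, 78155 and 45442 counts in TetHighProg, 8, 1250 and 4006 in TetLowReg and 39376, 75010 and 16482 in TetLowProg, so that both genes were lowest in TetLowReg. Each receptor had many more close matches. These were Nudt9 for Lag3 (r = 0.9996, 193 genes above 0.9), Srp54c for Tigit (r = 0.997, 486 genes), Nxf1 for Ctla4 (r = 0.997, 659 genes) and Pdpr for Cd244a (r = 0.9995, 98 genes).

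Reads on exons shared by neighbouring genes are left out of such counts, and how many were lost was not measured. Exons of Cd160 overlap those of Pdzk1, which had 0 counts in every library, and exons of Tox overlap those of Gm11802, which had 12 counts in TetLowReg replicate 7 and 0 elsewhere. In GRCm39, Tox lies at chr4:6686353-6991644, Pdcd1 at chr1:93966027-93980312, Lag3 at chr6:124881320-124888765 and Tigit at chr16:43469100-43484509, all on the minus strand. Ctla4 lies at chr1:60926159-60954991 and Cd244a at chr1:171386708-171437315, on the plus strand.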

How the data were processed

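RNA from sorted cells was copied into cDNA with Smart-seq2 and sequenced, in 9 libraries of 3 groups taken from the labels. The authors deposited unnormalized read counts per gene, aligned to GRCm39 with STAR 2.7.6a per the submitters' processing notes. The study's methods name featureCounts, whereas the layout is STAR's own, and which annotation release was counted is not given in the sources used here. Reads split evenly between strands (50.2% to 50.8%), so unstranded counts were used, without 4 summary lines. Symbols came from GENCODE M39, which matched 28645 of 32976 identifiers.

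CPM was taken over all gene counts. Genes were tested with edgeR 4.0.16 in R 4.3.3 (quasi-likelihood test, TMM, default filter, 3 groups in one model) with a call at more than 2 log2 units of change and an adjusted p (Benjamini-Hochberg) below 0.05. Single genes were compared by two-sided exact permutation of CPM. DESeq2 1.42.0 was run with default and with poscounts size factors, and on the compared libraries alone. Both tools were also run on simulated counts that lacked the differences in genes detected between libraries. That run does not show how they perform on these data. Python 3.11.15, NumPy 2.4.6, pandas 2.3.3, SciPy 1.17.1 and matplotlib 3.10.9 did the rest.

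The gene set and the lists (ligands, signaling partners, other inhibitory receptors, adenosine pathway, exhaustion factors, cell type markers) were chosen with earlier results of these data known. From each list except the markers, the text names the 3 genes found in most libraries, ties going to the higher mean CPM, plus Eomes, Tbx21 and Tcf7, and for each gene of the set found in 3 or more libraries its most correlated gene. Markers were named after their values were seen. Of the lists, 1 signaling partner and 2 other inhibitory receptors were not matched. Alternatives were other normalizations, filters and minimum counts, thinning to the smallest total, DESeq2 and leaving out each library.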

Additional observations from a re-analysis of the deposited data

How the results depend on the processing

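No paired analysis was possible because the groups share no replicate number. TetHighProg and TetLowProg libraries share tumors, and the labels do not say which. DESeq2 with default size factors, poscounts size factors and the compared libraries alone called 1792, 1047 and 1131 genes in TetLowReg against TetHighProg, 2359, 918 and 1987 in TetLowProg against TetHighProg, 73, 26 and 3 in TetLowProg against TetLowReg, and 2194, 1275 and 3297 in both low avidity groups against TetHighProg. Of the 10 genes, of which 3 to 5 had an adjusted p, it called 4, 3 and 2, then 3, 2 and 3, then 0 each time, then 4, 2 and 4. Within edgeR, 1 gene was called in TetLowProg against TetHighProg with library size alone or with DESeq2's size factors, and 0 in both low avidity groups with library size alone or without a filter. Leaving out each library in turn gave 0 to 4 genes called in TetLowReg against TetHighProg (4 without TetLowProg replicate 9), 0 to 2 in TetLowProg against TetLowReg and 0 to 1 in both low avidity groups, and none of the 10 in any comparison. Without the 4 libraries of fewest genes, chosen after seeing the data, edgeR called 3, 3, 0 and 7 genes. The cause of these differences was not tested.

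The log2 fold change of Tox kept its sign in TetLowReg against TetHighProg and in TetLowProg against TetLowReg under all 16 alternatives. With a library left out it ranged from -7.76 to -3.86 in the first and from 2.32 to 8.99 in the second. In TetLowProg against TetHighProg it ranged from -2.12 (without TetLowProg replicate 10) to 1.79 with a library left out and was -2.19 without the 4 libraries. In both low avidity groups it was 0.18 with DESeq2 on the libraries compared alone. The Tox difference between TetLowProg and TetHighProg was -0.27 in mean log2(CPM + 1), -340 CPM without the 4 libraries and -225 to 709 CPM with a library left out. For both low avidity groups it was -3.07, -373 CPM and -269 to 113 CPM, turning negative without TetHighProg replicate 2 (-59.7) or TetLowProg replicate 10. Against TetHighProg with a library left out, Lag3 ranged from 6.69 to 13.66 in TetLowReg and 0 to 12.55 in TetLowProg, Cd244a from 10.04 to 13.19 and 0 to 8.08, and Tigit from 5.71 to 13.69 and 10.87 to 13.30. Between the low avidity groups, Lag3 turned positive with library size alone (0.073), with DESeq2's size factors in edgeR (0.21) and with DESeq2's default size factors (0.21), and Tigit likewise (0.32, 1.10 and 1.10). With DESeq2's poscounts size factors they were -3.09 and -1.09, and on the compared libraries -0.43 and 0.69. With a library left out, Lag3 ranged from -12.90 to 5.37, Tigit from -0.97 to 5.99 and Ctla4 from -0.74 to 3.50. The mean number of genes of the set found, TetLowProg minus TetLowReg, was -1 at a minimum of 1 count and -1.67 to 2 with a library left out. Depth set a limit of 0.0824 to 0.183 CPM per library for a count of 0, and says nothing of transcripts lost before sequencing.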
